A study of Mus musculus with 8 samples.

Results

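The 9 genes of the caveolae coat were examined in brown adipose tissue (BAT) by bulk RNA-seq. They were taken by symbol from a table of 31053 genes, and comprise the caveolins Cav1, Cav2 and Cav3, the cavins Cavin1, Cavin2, Cavin3 and Cavin4, the membrane ATPase Ehd2 and the membrane-bending protein Pacsin3. All 9 were found under these symbols, and all 9 had counts. There were 4 WT and 4 Cd36KO libraries, each of C57BL6/J mice, with a labelled age of 8 weeks. The CD36 protein is a receptor for long-chain fatty acids, oxidized lipids and vesicles that resides in caveolae of adipocytes. The labels give the genotype as Cd36KO with no further detail, whereas the study attributes its BAT transcriptome to mice that lack CD36 in macrophages through a Csf1r-driven Cre acting on a floxed Cd36. The study gives the same age as the labels beside its transcriptome, and a later age at sacrifice in its methods. The control genotype is given only as WT. One Cd36KO library carries no replicate number in the count table and is called the unnumbered Cd36KO library.

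Caveolae are flask-shaped pits of the plasma membrane, dense in adipocytes, endothelium, smooth muscle and striated muscle. CAV1 in most cells, or CAV3 in striated muscle, is inserted into the inner leaflet and drives the curvature of the pit, and CAV2 joins CAV1 in mixed oligomers. Cavins form a coat on the cytosolic face, for which CAVIN1 is required, while EHD2 and PACSIN proteins sit at the neck. Caveolae buffer membrane tension and hold insulin receptors and fatty acid transporters in fat cells.

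Depth was 2679785 to 4097953 counts per library, and values below are normalized counts, that is, counts scaled by size factors of the median-of-ratios kind, with no correction for gene length. The labels also give the cell type as stromal vascular fraction. Mature adipocyte transcripts were nevertheless abundant in every library, with 44099 to 93197 summed normalized counts of 12 adipocyte markers in WT and 51070 to 69550 in Cd36KO. Xist had 772 to 1588 counts per library and 4 Y-linked genes together had at most 3, although the study states that its mice were male. WT replicate 1 stood apart from the other WT libraries. Its skeletal muscle markers (24 genes) summed to 91080 normalized counts, against 1474 to 16827 in the other WT and 506 to 11634 in the Cd36KO libraries, and its white adipocyte markers (11 genes) summed to 710, against 4192 to 5143 in the other WT and 590 to 1068 in the Cd36KO libraries. DESeq2 estimates of coat genes that rest on this library are given with and without it. Fits with a covariate are the exception, as they were made with all libraries only.

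The promoters of 4 members are shown because these genes follow different patterns below: Cav1 and Ehd2 of the general coat, and Cav3 and Cavin4 of the muscle coat. Each runs 5′ to 3′ from 250 bases before to 50 bases after the start site on build GRCm38.p6, as RefSeq gives it. These are chr6:17306085-17306384 on the plus strand for Cav1, chr7:15967486-15967785 on the minus strand for Ehd2, chr6:112459255-112459554 on the plus strand for Cav3 and chr4:48663264-48663563 on the plus strand for Cavin4. Capitals mark matches, on either strand, to the TATA box (TATAAA), the CCAAT box (CCAAT), the GC box (GGGCGG), an E-box that MyoD can bind (CAGCTG) and the DR1 repeat of PPAR and RXR.
Cav1: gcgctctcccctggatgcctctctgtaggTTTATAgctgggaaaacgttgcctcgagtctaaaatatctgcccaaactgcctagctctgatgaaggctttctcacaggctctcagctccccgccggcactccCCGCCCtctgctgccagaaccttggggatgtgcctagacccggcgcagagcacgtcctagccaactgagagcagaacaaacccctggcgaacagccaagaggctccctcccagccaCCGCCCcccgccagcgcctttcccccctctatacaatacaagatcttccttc
Ehd2: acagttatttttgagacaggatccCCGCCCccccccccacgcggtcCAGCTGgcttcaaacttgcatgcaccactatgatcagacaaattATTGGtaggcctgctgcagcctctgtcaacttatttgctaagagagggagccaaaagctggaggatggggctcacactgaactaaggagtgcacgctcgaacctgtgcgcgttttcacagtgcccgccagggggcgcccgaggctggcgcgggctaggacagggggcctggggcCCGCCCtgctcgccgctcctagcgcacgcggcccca
Cav3: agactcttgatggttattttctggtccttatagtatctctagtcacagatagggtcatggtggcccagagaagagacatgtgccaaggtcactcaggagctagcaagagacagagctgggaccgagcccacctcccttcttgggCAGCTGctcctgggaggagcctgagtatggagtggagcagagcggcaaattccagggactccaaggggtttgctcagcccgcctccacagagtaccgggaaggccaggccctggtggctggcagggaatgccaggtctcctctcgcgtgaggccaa
Cavin4: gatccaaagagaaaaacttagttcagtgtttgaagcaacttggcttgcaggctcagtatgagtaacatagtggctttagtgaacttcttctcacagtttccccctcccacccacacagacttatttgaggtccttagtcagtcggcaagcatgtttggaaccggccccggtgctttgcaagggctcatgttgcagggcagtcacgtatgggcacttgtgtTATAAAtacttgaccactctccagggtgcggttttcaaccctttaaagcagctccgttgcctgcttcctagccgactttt

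Of the 9 members, 8 had a promoter in this table, all but Cavin3, with 11 windows in all. The GC box was in 7 of the 11, those of Cav1, Cav2, Cavin1, Ehd2 and Pacsin3, and in 35.7% of all 32851 promoters. Windows of the same gene are not independent. Those of Cavin1 begin at 100970566 and 100970568 on chromosome 11, so the same GC and CCAAT boxes count in both. CAGCTG was in 3 windows, those of Cav3, Ehd2 and Pacsin3, against 16.3% of all promoters. TATAAA was in 2 windows, at position -30 from the start site in Cavin4 and at -221 in Cav1 on the opposite strand, against 13.6% of all promoters. CCAAT was in 6 windows, those of Cav2, Cavin1, Cavin2, Ehd2 and Pacsin3, against 37.4% of all promoters. The DR1 repeat was in 0 of the 11 windows, and in 0.0396% of all promoters. These matches describe the letters only.

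Across the coat, a single gene passed the test between genotypes. Cavin3, the protein kinase C delta-binding cavin, was lower in Cd36KO, and Cav1, Ehd2 and Pacsin3 had lower estimates that did not pass. The 2 most heavily counted members, Cavin1 and Cavin2, had estimates of 0.04 and -0.30 on the log2 scale. DESeq2 gave an adjusted p for 8 members, and 1 of these 8 passed 0.05, where all genes tested gave 2.95%, with 1.53% lower and 1.42% higher in Cd36KO. Cav3 was counted too rarely to receive an adjusted p. The quasi-likelihood test of edgeR and limma on the deposited log2 values called 0 members, where they called 14 and 0 of 9793 genes, or 0.143% (0.102% lower and 0.0408% higher in Cd36KO) and 0%. Before adjustment, 4 members had a DESeq2 p under 0.05 (Cav1, Cavin3, Ehd2 and Pacsin3), all with lower estimates, against 9.76% of all genes with a p (5.2% lower), and 5 had an edgeR p under 0.05, the fifth being Cavin4, against 16.1% (8.9% lower). Limma gave the same 4 members as DESeq2 at that unadjusted level, against 15.7% of all genes (7.79% lower). The median log2 fold change of the 8 members tested was -0.48, against -0.01 for all genes tested, and 8 of the 9 estimates lay below 0. In bulk tissue, fewer cells of a type and less RNA per cell cannot be told apart.

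**Figure D1:**
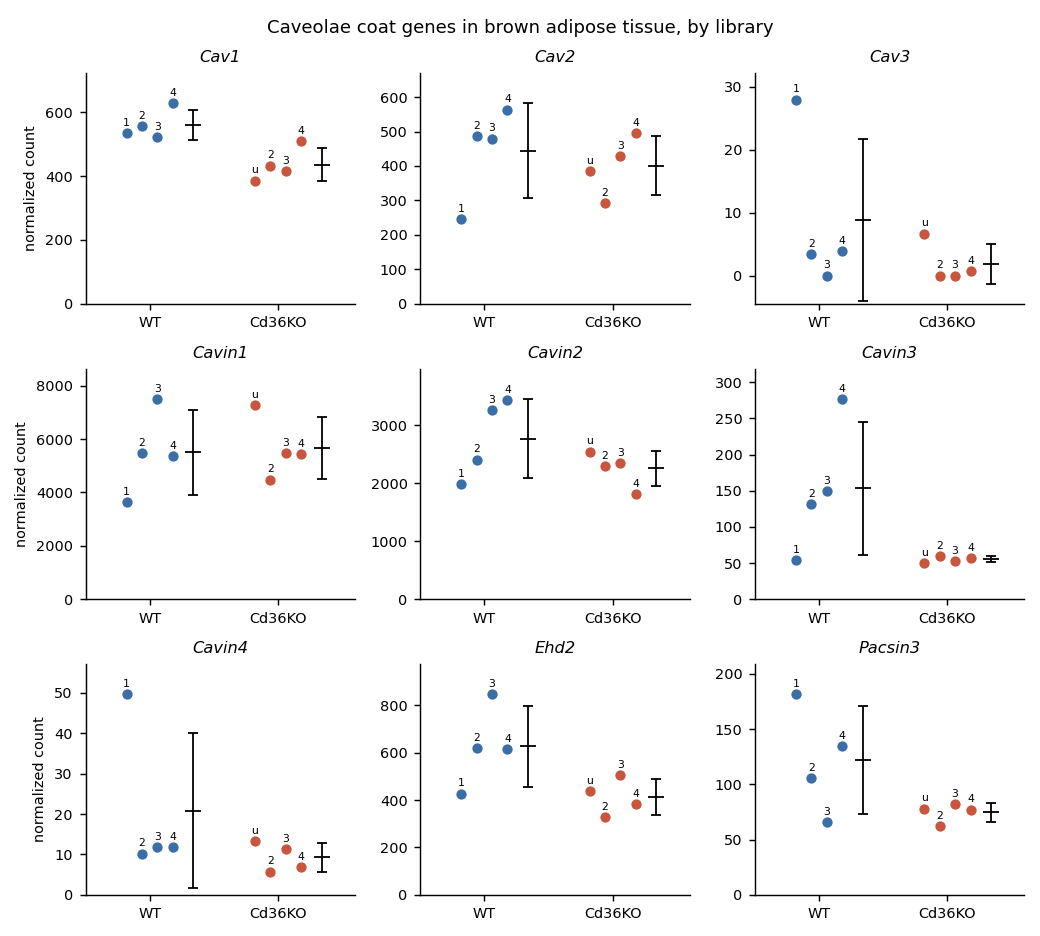
Normalized counts of the 9 coat genes (linear y axes) in 4 WT (blue) and 4 Cd36KO (red) libraries. Numbers are replicate numbers, u is the unnumbered Cd36KO library, and bars give mean and SD. Cav1 is the only member whose groups do not overlap, and WT replicate 1 lies at the Cd36KO level for Cavin3 and far above the other libraries for Cav3 and Cavin4.

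The caveolins were described first. Cav1 (ENSMUSG00000007655, chromosome 6, 17306335 to 17341452, plus strand, protein-coding) had 535, 556, 522 and 628 normalized counts in WT replicates 1 to 4. For Cd36KO the value was 385 in the unnumbered library, followed in replicates 2, 3 and 4 by 433, 415 and 509. Every Cd36KO value was thus below every WT value, with Cd36KO replicate 4 closest to the lowest WT library. The means were 560 ± 47.2 in WT and 436 ± 52.5 in Cd36KO (mean ± SD, n = 4), giving -0.36 on the log2 scale of fold change (standard error, SE, 0.15). The exact two-sided permutation p was 0.0286, the smallest that 4 against 4 libraries allow, but adjustment over all genes gave a DESeq2 adjusted p of 0.187 and the edgeR adjusted p 0.258. Among the 7 members with a mean of at least 50 normalized counts, Cav1 was the only 1 whose groups did not overlap, while 10.9% of all genes at that level showed such a split, 3.96% lower and 6.91% higher in Cd36KO. The estimate stayed between -0.45 and -0.30 when any single library was left out, with DESeq2 adjusted p from 0.132 to 0.564.

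Cav2 (ENSMUSG00000000058, chromosome 6, 17281185 to 17289115, plus strand), which ends 17219 bases before Cav1 starts, had 245, 488, 480 and 564 normalized counts in WT replicates 1 to 4. In Cd36KO it had 385 in the unnumbered library and 292, 430 and 497 in replicates 2, 3 and 4. The groups overlapped widely, and the lowest value of all was that of WT replicate 1. Means were 444 ± 138 and 401 ± 85.6 (mean ± SD, n = 4), with a log2 fold change of -0.14 whose 95% interval ran from -0.64 to 0.35 (DESeq2 adjusted p = 0.850). Without WT replicate 1 the Cav2 estimate was -0.35 (DESeq2 adjusted p = 0.466), and leaving out WT replicate 4 or Cd36KO replicate 2 brought it to -0.01 and -0.02. It was -0.26 without Cd36KO replicate 4, and 0 of the 8 fits without a library passed. With a white adipocyte score, described with Cavin3 below, as covariate the Cav2 estimate was 0.93 (DESeq2 adjusted p = 0.0738). The ratio of Cav2 to Cav1 counts was 0.457 in WT replicate 1, 0.876 to 0.919 in the other WT libraries, and 0.676 to 1.03 in Cd36KO. An antisense transcript, Gm15581, spans parts of both genes on the opposite strand and held 2 counts in all 8 libraries. Whether reads were counted by strand is not stated.

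Cav3, the caveolin of striated muscle (ENSMUSG00000062694, chromosome 6, 112459505 to 112472872, plus strand), was barely detected. It had 28.0, 3.40, 0 and 3.96 normalized counts in WT replicates 1 to 4, which rest on 31, 4, 0 and 4 reads. For Cd36KO the value was 6.68 in the unnumbered library, followed in replicates 2, 3 and 4 by 0, 0 and 0.763. A count of 0 allows up to 3 counts, or 3.07 to 3.53 normalized counts in the 3 libraries concerned. The groups overlapped (exact two-sided permutation p = 0.371). The log2 fold change of -2.28 (SE 1.31) moved to -0.45 without WT replicate 1 and to -4.68 without the unnumbered Cd36KO library, which held 6 reads where Cd36KO replicates 2, 3 and 4 held 0, 0 and 1. With the skeletal muscle score as covariate the sign of the Cav3 estimate turned, to 1.23 (SE 1.30).

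The cavins, which coat the membrane from the cytosol, came next. Cavin1 (ENSMUSG00000004044, chromosome 11, 100956733 to 100970887, minus strand) had 3649, 5478, 7506 and 5355 normalized counts in WT replicates 1 to 4. For Cd36KO the value was 7284 in the unnumbered library, followed in replicates 2, 3 and 4 by 4476, 5462 and 5446. The groups overlapped, with the lowest and the highest values of Cavin1 both in WT. Means were 5497 ± 1578 in WT and 5667 ± 1173 in Cd36KO (mean ± SD, n = 4). The log2 fold change was 0.04 with a 95% interval from -0.39 to 0.48 (DESeq2 adjusted p = 0.959), and its sign turned to -0.11 without WT replicate 1 and to -0.10 without the unnumbered Cd36KO library. With the white adipocyte score as covariate it was 0.88 and passed (DESeq2 adjusted p = 0.0427). That fit was not repeated without WT replicate 1, the lowest library for Cavin1.

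Cavin2 (ENSMUSG00000045954, chromosome 1, 51289126 to 51302960, plus strand), which binds phosphatidylserine and tubulates membranes, had 1986, 2405, 3253 and 3426 normalized counts in WT replicates 1 to 4. In Cd36KO it had 2545 in the unnumbered library and 2300, 2351 and 1817 in replicates 2, 3 and 4. WT replicates 3 and 4 lay above every Cd36KO library, and WT replicates 1 and 2 lay among them. Means were 2768 ± 686 and 2253 ± 309 (mean ± SD, n = 4), and the log2 fold change was -0.30 (SE 0.20, DESeq2 adjusted p = 0.502). It ranged from -0.43 without WT replicate 1 to -0.18 without WT replicate 4, and did not pass in any fit without a library. With the white adipocyte score as covariate the Cavin2 estimate was 0.37 (DESeq2 adjusted p = 0.470). Cavin2 per Cavin1, a ratio of counts, was 0.433 to 0.640 in WT and 0.334 to 0.514 in Cd36KO, and the ranges overlapped.

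Cavin3 (ENSMUSG00000037060, chromosome 7, 105480083 to 105482300, minus strand), which binds caveolin-1 and protein kinase C delta, had 54.2, 132, 149 and 277 normalized counts in WT replicates 1 to 4. For Cd36KO the value was 50.1 in the unnumbered library, followed in replicates 2, 3 and 4 by 59.8, 53.2 and 57.2. The Cd36KO libraries were close to each other, and 3 WT libraries lay above all of them, while WT replicate 1 fell within their range. The mean fell from 153 ± 92.4 in WT to 55.1 ± 4.29 in Cd36KO (mean ± SD, n = 4), giving -1.47 (SE 0.38) on the log2 scale, DESeq2 adjusted p = 0.0103. The edgeR adjusted p was 0.110, the limma adjusted p 0.159, and the exact two-sided permutation p 0.0857. Cavin3 passed in all 8 DESeq2 fits that each left out a library, with estimates from -1.75 to -1.02. The first of these is the value without WT replicate 1 (DESeq2 adjusted p = 3.19e-07), and the second that without WT replicate 4, the highest WT library (DESeq2 adjusted p = 0.0360). Over all alternatives its adjusted p ranged from 3.19e-07 to 0.595.

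The level of Cavin3 went with that of the white adipocyte markers across the 8 libraries. The 3 WT libraries with high Cavin3 had 4192 to 5143 summed normalized counts of these markers, and the 5 other libraries, WT replicate 1 included, had 590 to 1068. Of the 11 markers, 7 were tested, and all 7 had estimates below 0. DESeq2 adjusted p was under 0.05 for 5 of these 7 (Lep, Hoxc8, Aldh1a1, Nnat and Agt), where 1.53% of all genes passed as lower in Cd36KO. Of the 4 not tested, Hoxc10 and Tcf21 were at 0 in all libraries. With the mean log2 level of this list as a covariate, an alternative chosen on seeing the data, Cavin3 was estimated at 0.50 with a DESeq2 adjusted p of 0.595. That covariate, as mean log2 CPM, was 3.48 in WT replicate 1, 5.09 to 5.42 in the other WT libraries and 2.64 to 3.26 in Cd36KO. It thus did not overlap between genotypes itself, and WT replicate 1 was the only WT library near the Cd36KO values. Estimates of any coat gene with this covariate therefore lean on WT replicate 1, and the fit was not repeated without that library. These markers were named after their values were seen.

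Cavin4, the cavin of striated muscle (ENSMUSG00000028348, chromosome 4, 48663514 to 48673502, plus strand), had 49.6, 10.2, 11.8 and 11.9 normalized counts in WT replicates 1 to 4. For Cd36KO the value was 13.4 in the unnumbered library, followed in replicates 2, 3 and 4 by 5.75, 11.3 and 6.86. Apart from WT replicate 1 all values lay in a narrow, low range shared by both genotypes. Means were 20.9 ± 19.2 and 9.31 ± 3.60 (mean ± SD, n = 4), and the log2 fold change was -1.18 (standard error 0.61, DESeq2 adjusted p = 0.336). The Cavin4 estimate was -0.28 without WT replicate 1, -0.24 with the skeletal muscle score as covariate and -2.80 with the white adipocyte score. DESeq2 gave it no adjusted p in either covariate fit. Cav3 and Cavin4 thus had their highest values in the library with the highest muscle markers.

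Among the proteins of the caveolar neck, Ehd2 (ENSMUSG00000074364, chromosome 7, 15946958 to 15967567, minus strand), an ATPase that anchors caveolae at the surface, had 428, 620, 847 and 615 normalized counts in WT replicates 1 to 4. In Cd36KO it had 437 in the unnumbered library and 329, 504 and 384 in replicates 2, 3 and 4. WT replicates 2, 3 and 4 lay above all Cd36KO values, and WT replicate 1 lay among them, the same split as for Cavin3. Means were 628 ± 171 and 414 ± 74.7 (mean ± SD, n = 4), with a log2 fold change of -0.60 (SE 0.22). This did not pass (DESeq2 adjusted p = 0.118, edgeR adjusted p = 0.185). Without WT replicate 1 the estimate was -0.75 and passed (DESeq2 adjusted p = 0.00759), and with the white adipocyte score as covariate it was 0.05. The adjusted p of Ehd2 ranged from 0.00739 to 0.947 over its alternatives.

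Pacsin3 (ENSMUSG00000027257, chromosome 2, 91255954 to 91264679, plus strand), the PACSIN abundant in skeletal muscle, had 181, 105, 65.9 and 135 normalized counts in WT replicates 1 to 4. For Cd36KO the value was 78.0 in the unnumbered library, followed in replicates 2, 3 and 4 by 62.1, 81.8 and 77.0. WT replicate 3, the WT library with the fewest muscle marker counts, lay within the Cd36KO range, and the other WT libraries lay above it. Means were 122 ± 48.7 and 74.7 ± 8.66 (mean ± SD, n = 4), with a log2 fold change of -0.71 (SE 0.29, DESeq2 adjusted p = 0.184). The estimate was -0.45 without WT replicate 1 and -0.20 with the skeletal muscle score as covariate (DESeq2 adjusted p = 0.832). With the white adipocyte score it was -1.42 and passed (DESeq2 adjusted p = 0.0331), in a fit that was not repeated without WT replicate 1. A long noncoding transcript on the opposite strand, Gm17281, overlaps Pacsin3 and held 24 counts beside 822 of Pacsin3 over the 8 libraries.

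**Figure D2:**
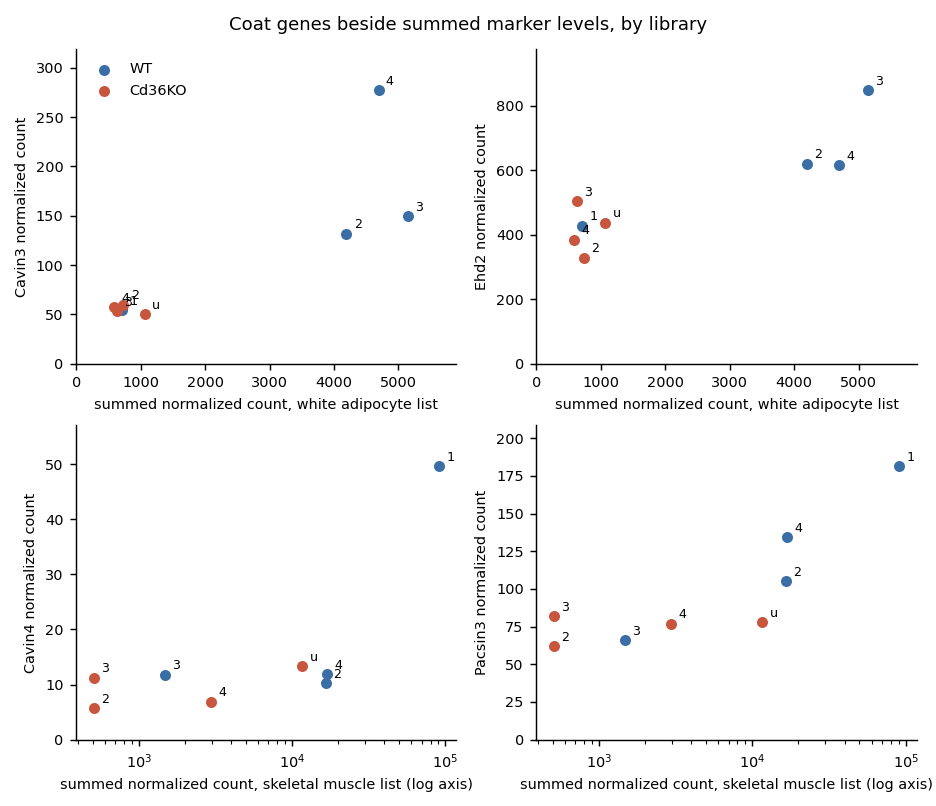
Normalized counts of Cavin3 and Ehd2 against the summed normalized counts of 11 white adipocyte markers (linear axes), and of Cavin4 and Pacsin3 against those of 24 skeletal muscle markers (log x axis), 1 point per library, WT in blue and Cd36KO in red, labelled by replicate number (u, unnumbered). The pairs were chosen after the values were seen. WT replicate 1 sits with the Cd36KO libraries in the upper panels and at the far right, at 91080 muscle marker counts, in the lower ones.

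Markers of other cell types that carry caveolae were read from the same fit, and 0 of the 24 skeletal muscle markers passed. All 24 nevertheless had estimates below 0, with a median log2 fold change of -3.01, and 13 had a DESeq2 p and 21 an edgeR p under 0.05 before adjustment, where all genes gave 9.76% and 16.1%. Without WT replicate 1, which held 91080 of these marker counts, the 24 estimates stayed below 0 with a median of -1.47, and 0 of them had a DESeq2 p under 0.05, where all genes gave 8.98%. The edgeR test was not refitted without that library. Cav3, Cavin4 and Pacsin3 were estimated lower in Cd36KO beside them. Of the 16 endothelial markers, 15 were tested and 0 passed in DESeq2, their summed normalized counts being 2026 to 2979 in WT and 2303 to 3486 in Cd36KO. Of 12 smooth muscle and pericyte markers, 0 of 12 passed, with sums of 1179 to 2329 and 1150 to 1483. With the endothelial score as covariate Cavin3 still passed, at -0.98 (DESeq2 adjusted p = 0.0251). Of the 13 brown adipocyte markers, 4 passed, all higher in Cd36KO and Ucp1 among them, and their sums of 21386 to 25958 in WT and 35426 to 44520 in Cd36KO did not overlap. Markers that passed are named here after their values were seen, and over all genes tested 1.42% passed as higher and 1.53% as lower in Cd36KO. Of the 12 general adipocyte markers, 2 passed, Acvr1c and Lep, both lower in Cd36KO, and Lep is also among the white adipocyte markers counted above. Macrophage markers summed to 675 to 1197 in WT and 728 to 1048 in Cd36KO, and 1 of the 9 tested passed, Cd163, lower in Cd36KO. Of 12 fibroblast and progenitor markers, 10 were tested and 2 passed, Col1a2 and Dpt, both lower in Cd36KO, with sums of 2668 to 3488 in WT and 2118 to 2480 in Cd36KO. The part of these cell types in the values of the coat genes was not tested beyond the covariate fits given here.

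A list of 19 partner genes comprised paralogs of the neck proteins, flotillins, scission and anchoring factors, and receptors and enzymes that act at caveolae. Of these, 16 were tested and 0 passed in DESeq2 or edgeR, in either direction. At an unadjusted p under 0.05 there were 3 in DESeq2 and 3 in edgeR (Cd36, Ehd1 and Insr in both), where all genes gave 9.76% and 16.1%. Of the 13 with a mean of at least 50 normalized counts, 2 did not overlap between groups (Cd36 and Ehd1), where 10.9% of all genes at that level did not. The median log2 fold change of the 16 was -0.02, against -0.01 for all genes tested. Cd36 itself had 2796, 2958, 3505 and 2412 normalized counts in WT replicates 1 to 4, 1926 in the unnumbered Cd36KO library, and 2109, 2384 and 1930 in Cd36KO replicates 2, 3 and 4. All Cd36KO values were below all WT values, and the log2 fold change was -0.48 (SE 0.16, DESeq2 adjusted p = 0.0602). The transcript thus remained abundant in the libraries labelled Cd36KO, with means of 2918 ± 454 in WT and 2087 ± 216 in Cd36KO (mean ± SD, n = 4).

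Ehd1, a paralog of Ehd2 that acts in endocytic recycling, had the opposite sign. It had 209, 189, 199 and 228 normalized counts in WT replicates 1 to 4, 297 in the unnumbered Cd36KO library, and 257, 275 and 292 in Cd36KO replicates 2, 3 and 4. Every Cd36KO value was above every WT value, with a log2 fold change of 0.45 (SE 0.15), and the DESeq2 adjusted p was 0.0882. Ehd1 and the following paralogs were singled out on seeing their values. Ehd3 and Ehd4 had log2 fold changes of 0.13 and -0.12, and Pacsin2, the PACSIN found in most tissues, of -0.08, with DESeq2 adjusted p of 0.869, 0.846 and 0.956. The most heavily counted other partners were Lipe, the hormone-sensitive lipase, with a log2 fold change of -0.19 (DESeq2 adjusted p = 0.753), Slc2a4, which encodes the insulin-responsive glucose transporter GLUT4, with 0.28 (0.483 by the same test), and Stom, the lipid raft protein stomatin, with 0.05 (0.946). Insr, the insulin receptor, had 181 ± 29.4 normalized counts in the WT group and 131 ± 18.3 in Cd36KO (mean ± SD, n = 4), giving -0.47 on the log2 scale at a DESeq2 adjusted p of 0.205, and is also named after its values were seen.

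**Figure D3:**
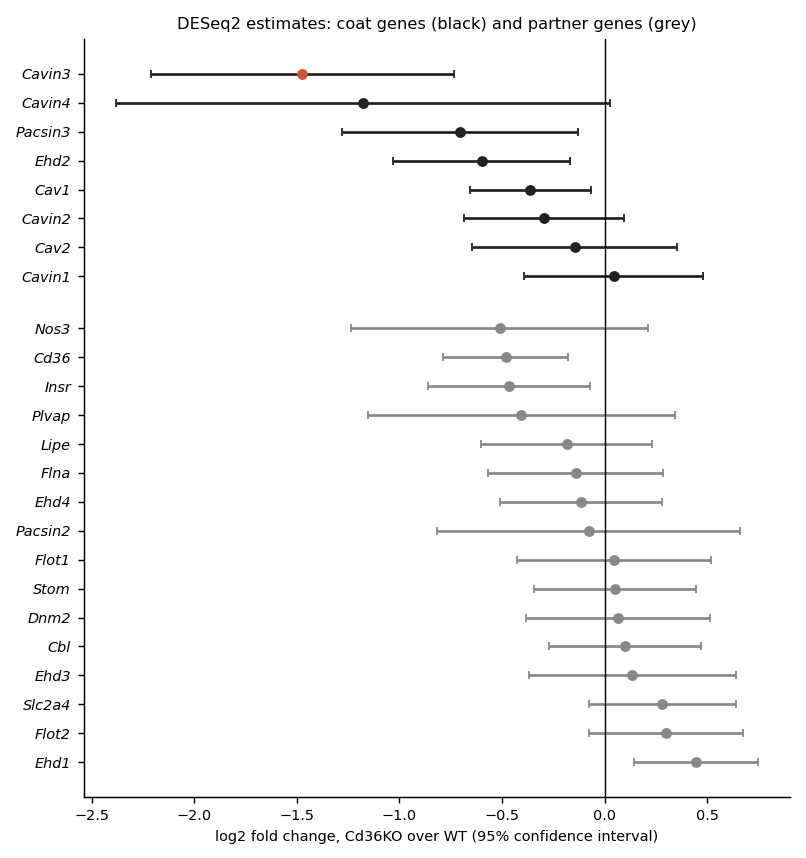
DESeq2 log2 fold changes (x axis, Cd36KO over WT) with 95% confidence intervals for the 8 coat genes (black) and 16 partner genes (grey) that had an adjusted p. Red marks an adjusted p under 0.05, which Cavin3 alone reached. Intervals here are not adjusted for the number of genes.

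Relative amounts within the coat were compared as ratios of normalized counts in each library, as a description. Cavin1 per Cav1 was 6.82, 9.85, 14.4 and 8.53 in WT replicates 1 to 4, and 18.9, 10.3, 13.2 and 10.7 in the unnumbered Cd36KO library and Cd36KO replicates 2, 3 and 4. Its median was 9.19 in WT and 11.9 in Cd36KO, and the ranges overlapped. Cavin3 per Cav1 was 0.101 in WT replicate 1, 0.237 to 0.441 in the other WT libraries and 0.112 to 0.138 in Cd36KO, so WT replicate 1 lay below the Cd36KO range here. Ehd2 per Cav1 had medians of 1.05 in WT and 0.947 in Cd36KO with overlapping ranges.

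The genes whose pattern over the 8 libraries was most like that of a member were found by Pearson's r of log2 normalized counts plus 1, among 5475 protein-coding genes. These values describe points that share libraries, depth and the genotype split. For Cav1 they were Lrrc17, Lrrc8d, Pdcd5, Rpl10 and Cdc123, with r from 0.934 to 0.953 and Spearman's rho from 0.857 to 0.976. Without the 2 Cd36KO libraries farthest from the Cav1 median, r was 0.838 to 0.948. Lrrc17, a secreted leucine-rich repeat protein, was the only 1 of these 5 that passed in DESeq2, with 231 ± 45.2 normalized counts in the WT group and 113 ± 40.9 in Cd36KO (mean ± SD, n = 4) and a log2 fold change of -1.02 (DESeq2 adjusted p = 0.0127). Rpl10 belongs to a family with many near-identical copies, and its value is less certain. For Cav3 the 5 genes were Myh7, Tnnt1, Mybpc2, Myl1 and Ldb3, all of the muscle sarcomere, with r from 0.965 to 0.978 and rho from 0.878 to 0.952. Leaving out WT replicate 1 and Cd36KO replicate 3, r was 0.916 to 0.971, and each of the 5 had a DESeq2 adjusted p above 0.05, the lowest being 0.154 for Mybpc2.

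**Figure D4:**
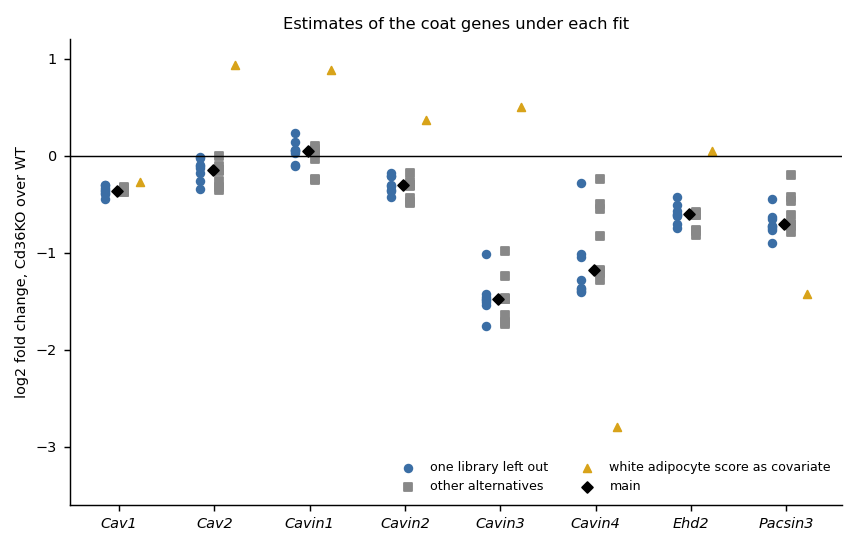
Log2 fold changes (y axis, Cd36KO over WT) of 8 coat genes in each fit: DESeq2 with all libraries (black diamonds), fits without 1 library (blue circles), other alternatives (grey squares) and the fit with the white adipocyte score as covariate (yellow triangles). Cav1 stays between -0.45 and -0.27 in all of them, while the triangles of Cav2, Cavin2, Cavin3 and Ehd2 lie above 0, opposite to the diamonds, and Cav3 is left out because of its few counts.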

How the data were processed

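RNA of BAT was sequenced single-end by a digital mRNA-seq service. As the study's methods state, the authors used bbduk for trimming, STAR for alignment to mm10 and HTSeq-count for gene counts. The submitters' processing notes name Trimmomatic, HISAT2 and DESeq2. The deposited counts are whole numbers per gene, not normalized. Annotation release, strand setting and molecular identifiers are not given in the sources used here. The deposited log2 values equal log2 of the count over a median-of-ratios size factor plus 1, and served 1 alternative.

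Symbols and coordinates (1-based) came from GENCODE M21 on GRCm38. Genotypes were compared in the whole table with DESeq2 1.42.0 (Wald test, default filters, R 4.3.3), which the study's methods name, with Benjamini-Hochberg adjustment and a threshold of 0.05. Alternatives used edgeR 4.0.16, limma 3.58.1, other filters, scaling, covariates (mean log2 CPM of a marker list), a replicate block, and each library left out. Permutation tests were exact and two-sided (70 arrangements). The fits were tested on simulated data. The study gives 4 mice per group, although the labels do not tie libraries to mice. No 2 libraries of a group agreed within sampling noise (lowest chi-square over its degrees of freedom, 6.43). Floors of 3 counts cover counting error only, and the 95% intervals of fold changes also hold the spread between libraries.

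Named genes were the members, Cd36, called partners, the most heavily counted partners, and the 5 genes most like Cav1 and Cav3. Others, the cell type markers included, are marked as named after their values were seen. Members and lists were chosen with earlier results of these data known. An item of the partner list is not reported here.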

Additional observations from a re-analysis of the deposited data

Results flagged for a closer look

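Groups of 4 libraries were examined for a value far from the rest, for 9 genes in 2 genotypes, on the scale of log2 normalized count plus 1. Of the 18 groups, 1 had such a value, where chance gives 0.9. Cavin4 in WT replicate 1 had 49.6 normalized counts, against 10.2 to 11.9 in the other WT libraries, in the library that also had the most counts of skeletal muscle markers. On unlogged values Cav3 also had such a value in both genotypes, 28.0 in WT replicate 1 and 6.68 in the unnumbered Cd36KO library.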

How the results depend on the processing

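The 1 member called, Cavin3, became 0 with edgeR and with limma, 2 with the replicate block and in the same 6 libraries without the block (Cavin3 and Ehd2 in both), and 2 with the white adipocyte score (Cavin1 and Pacsin3), a covariate added after the data were seen. Leaving out a library gave 1 to 2. The 284 genes called in the whole table became 14 with edgeR, 0 with limma, 171 with independent filtering off, 187 with the muscle score and 622 with the white adipocyte score (501 higher, 121 lower), and 70 to 498 without 1 library: 70 without WT replicate 2, 140 and 498 without WT replicates 3 and 4, 113 without the unnumbered Cd36KO library, and 133 and 125 without Cd36KO replicates 3 and 4. With the endothelial score, 200 of 321 were higher, in place of 137 of 284. With the replicate block, 32 of 221 were higher, and in the same 6 libraries without it 48 of 262. Of the partners, 0 became 1 with the muscle or endothelial score (Cd36) and with the white adipocyte score (Lipe), and 0 to 3 without a library, 3 being without WT replicate 4 (Ehd1, Cd36 and Slc2a4).

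Signs turned with the white adipocyte score for Cav2 (0.93), Cavin2 (0.37), Cavin3 (0.50) and Ehd2 (0.0508), and with the muscle score for Cav3 (1.23) and Cavin1 (-0.0298). Cavin1 also turned with the replicate block (-0.24), in those 6 libraries without it (-0.25), and without WT replicate 1 (-0.11) or the unnumbered Cd36KO library (-0.10), its range without a library being -0.11 to 0.23. The cause of these changes was not tested. Same-numbered libraries share only a number. Their deviations correlated at -0.13, 0.42 and 0.14 over the 3 pairs, and the block gave 221 genes against 262 in the same libraries. Of 136 alternative estimates for members with an adjusted p there and in the comparison of all libraries, 120 kept their sign and side of the threshold. Cav3 fell under the default count filter of DESeq2. Its adjusted p was 0.626 with that filter off and 0.331 without WT replicate 3.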
